A study of Mus musculus with 12 samples.

Results

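The genes described here encode the factors that start and extend protein chains on the ribosome and the enzymes that charge tRNAs with amino acids. They were taken by symbol from the protein-coding genes of RefSeq on the mouse build GRCm38: symbols that begin with Eif or Eef and a digit, and synthetase symbols that end in ars or ars2. This gave 104 genes, of which 103 lie on chromosomes 1 to 19 and X, among 21631 protein-coding genes there. Eif2s3y lies on Y, which is left out of the hotspot lists, and was not analysed here. The 103 genes were 70 translation factor genes and 33 synthetase genes. The symbol rule leaves out relatives with other endings, such as Mars1, Eprs, Farsa and Farsb.

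The measurements are DMC1-SSDS hotspots from whole testis of adult male mice, 1 list for Ankrd31 knockout mice (allele Ankrd31 tm1Atot) and 1 for wild type mice (C57BL/6JCrl), with 2 DMC1 samples labelled for each genotype. DMC1 is the meiotic recombinase that loads on single-stranded DNA beside double-strand breaks, and SSDS sequences that DNA, so a hotspot is an interval where meiotic recombination starts. The labels name the knockout mice only by their allele, so a difference of strain cannot be told apart from the loss of ANKRD31. The lists hold no values of single animals, so no difference between genotypes was set against a spread between animals and no p-value is given. SSDS does not measure RNA or protein, so loss of Ankrd31 was not checked, and nothing here bears on the expression of the translation genes.

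Initiation factors bring the small ribosomal subunit, the initiator tRNA and the mRNA together at a start codon, elongation factors move the ribosome along the message, and aminoacyl-tRNA synthetases join each amino acid to its tRNA in the cytosol or in mitochondria. Most of these genes are housekeeping genes with CpG-rich promoters. In mice, the histone methyltransferase PRDM9 places most meiotic breaks away from promoters, while in its absence breaks fall at promoters and other sites of H3K4me3. ANKRD31 is a partner of the machinery that forms the breaks. The question for these genes was how often, how strongly and at which gene end breaks were placed with and without ANKRD31.

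The start regions of 6 genes are shown because their genes had the strongest knockout hotspots at a start, among genes with an entry in the RefSeq promoter table: the 4 strongest of all and the strongest cytosolic and mitochondrial synthetase. Each is the 250 bases before the start that the promoter table gives, 5′ to 3′ on the strand of the gene, from RefSeq on GRCm38.p6. For Yars and Fars2 this start lies 169 and 215 bp inside the outer end of the gene, so these stretches lie mostly within the annotated gene. For the others it is the outer end. Capitals mark matches on either strand to GGGCGG (the GC box, which binds SP family factors), CCAAT (the CCAAT box) or CCGGAAG (a core that binds ETS family factors).
Eif1ax (chrX:159371928-159372177, plus strand): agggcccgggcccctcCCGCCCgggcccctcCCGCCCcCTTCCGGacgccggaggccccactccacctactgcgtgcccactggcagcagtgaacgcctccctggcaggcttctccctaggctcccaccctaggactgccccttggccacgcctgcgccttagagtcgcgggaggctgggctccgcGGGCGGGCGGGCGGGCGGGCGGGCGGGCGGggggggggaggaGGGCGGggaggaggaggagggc
Eef1a1 (chr9:78481725-78481974, minus strand): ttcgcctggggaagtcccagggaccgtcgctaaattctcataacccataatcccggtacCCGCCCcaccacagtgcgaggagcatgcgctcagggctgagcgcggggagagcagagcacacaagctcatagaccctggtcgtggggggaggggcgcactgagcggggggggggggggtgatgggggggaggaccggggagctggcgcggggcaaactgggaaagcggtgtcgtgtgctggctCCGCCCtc
Eef2kmt (chr16:5255957-5256206, minus strand): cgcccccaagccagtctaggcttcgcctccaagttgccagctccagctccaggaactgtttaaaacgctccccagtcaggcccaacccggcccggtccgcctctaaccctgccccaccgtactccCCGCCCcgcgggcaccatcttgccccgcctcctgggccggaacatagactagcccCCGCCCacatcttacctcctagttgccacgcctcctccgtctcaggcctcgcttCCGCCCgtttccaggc
Eif2s3x (chrX:94212652-94212901, minus strand): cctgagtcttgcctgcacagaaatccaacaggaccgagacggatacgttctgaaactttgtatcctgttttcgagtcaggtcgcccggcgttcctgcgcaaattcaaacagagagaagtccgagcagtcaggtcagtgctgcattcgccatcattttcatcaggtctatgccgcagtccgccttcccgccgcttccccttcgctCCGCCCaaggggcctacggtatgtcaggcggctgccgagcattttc
Yars (chr4:129189653-129189902, plus strand): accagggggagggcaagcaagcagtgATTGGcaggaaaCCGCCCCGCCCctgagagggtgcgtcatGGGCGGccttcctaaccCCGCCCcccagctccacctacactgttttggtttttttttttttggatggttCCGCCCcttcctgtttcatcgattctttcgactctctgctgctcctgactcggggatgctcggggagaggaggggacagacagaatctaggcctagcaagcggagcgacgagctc
Fars2 (chr13:36117393-36117642, plus strand): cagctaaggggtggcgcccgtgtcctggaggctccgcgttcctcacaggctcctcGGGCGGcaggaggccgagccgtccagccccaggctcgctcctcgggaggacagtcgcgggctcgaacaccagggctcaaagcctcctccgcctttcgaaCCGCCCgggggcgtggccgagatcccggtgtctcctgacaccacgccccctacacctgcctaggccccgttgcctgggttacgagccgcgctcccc
These stretches held 13 to 25 CpG dinucleotides each and each had at least 1 GC box. Eif1ax had 10 overlapping or neighbouring matches to GGGCGG, Yars 5, Eef2kmt 3, Eef1a1 and Fars2 2 each and Eif2s3x 1. A match is a run of letters and was not tested as a binding site.

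In the knockout list, 47 of the 103 genes (45.6%) had a hotspot centred within 1 kb of a gene end, against 27.1% of all protein-coding genes. In the wild type list, 4 of the 103 (3.88%) had a hotspot there, against 1.99% of all protein-coding genes. For 44 genes (42.7%), the knockout hotspot was knockout-only, meaning that it overlapped no wild type hotspot by 1 bp or more, against 25.5% of all protein-coding genes. The knockout share was above the background, and 56 genes had no knockout hotspot at an end. The share was 47.1% for the translation factors (33 of 70) and 42.4% for the synthetases (14 of 33).

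The rule has its threshold at 1 kb. Just inside it were Nars2 at 869 bp, Eef1akmt2 at 867 bp and Aars at 833 bp. Just outside were Wars2 at 1194 bp, Eif4e at 1307 bp and Qars at 1570 bp. Of the 56 genes with no knockout hotspot at an end, 5 had the nearest knockout centre within 2 kb and 34 had it over 10 kb away.

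**Figure D1:**
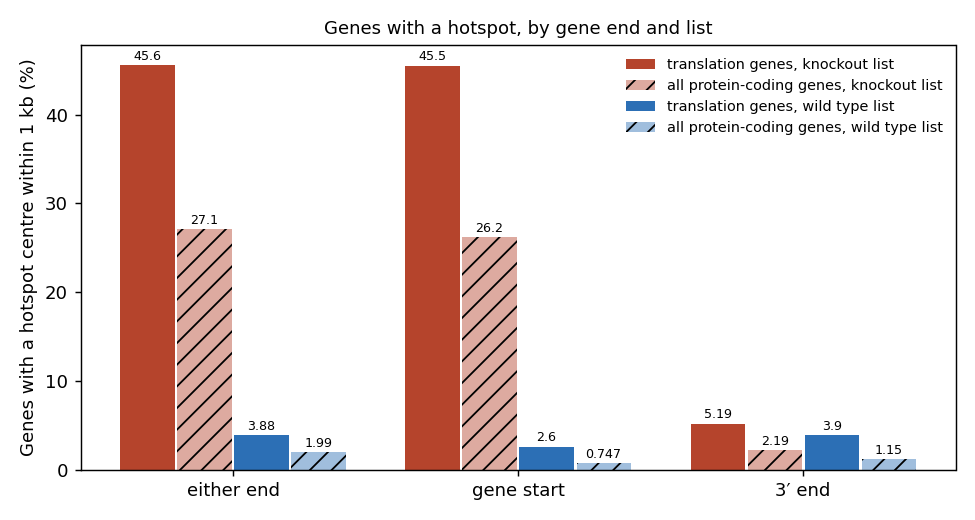
Percent of genes with a hotspot centre within 1 kb of either end, of the gene start and of the 3′ end, for translation genes (solid) and all protein-coding genes (hatched), knockout list in red and wild type list in blue. The knockout share of translation genes is 45.6% at either end and 45.5% at the start, and 5.19% at the 3′ end.

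Where the strand was known, most of these hotspots sat at gene starts. The promoter table gave a strand for 77 of the 103 genes, and the start was taken as the outer end of the gene on that strand. A knockout hotspot lay within 1 kb of the start of 35 of these (45.5%), against 26.2% of the 17274 protein-coding genes with a strand. At the 3′ end it was 4 of 77 (5.19%), against 2.19%. With the start given by the promoter table instead, which is the same position for 52 of the 77 genes and within 100 bp for 64, it was 38 of 77 (49.4%), against 27.8%. The 4 genes with a hotspot at the 3′ end were Eef1akmt2, Eef2kmt, Lars2 and Aars, and the Aars hotspot also lay within 1 kb of an end of Exosc6. In the wild type list, 2 of 77 genes (2.6%) had a hotspot at the start, against 0.747%, and 3 (3.9%) at the 3′ end, against 1.15%. With so few wild type hotspots, these counts describe single genes.

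Knockout hotspots lay close to the start and on both sides of it. Over the 35 genes, the centre had a median offset of 107 bp into the gene and a median distance of 205 bp, with 20 genes (57.1%) showing it downstream of the start. Over the 4524 protein-coding genes with a knockout hotspot at the start, the median offset was 95 bp and the median distance 155 bp, and 67.6% had it downstream. The hotspots were centred 14 bp before the start of Eef1a1, 14 bp before that of Tars and 13 bp before that of Eif3k. These offsets are from the outer end of the gene: the hotspot of Fars2 was centred at 117 bp from that end and at -98 bp from the start in the promoter table, where negative is upstream. The interval itself is wide, with a median of 1700 bp over the 48 knockout hotspots at ends of these genes and 1750 bp over all protein-coding gene ends, so a centre does not place single breaks.

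**Figure D2:**
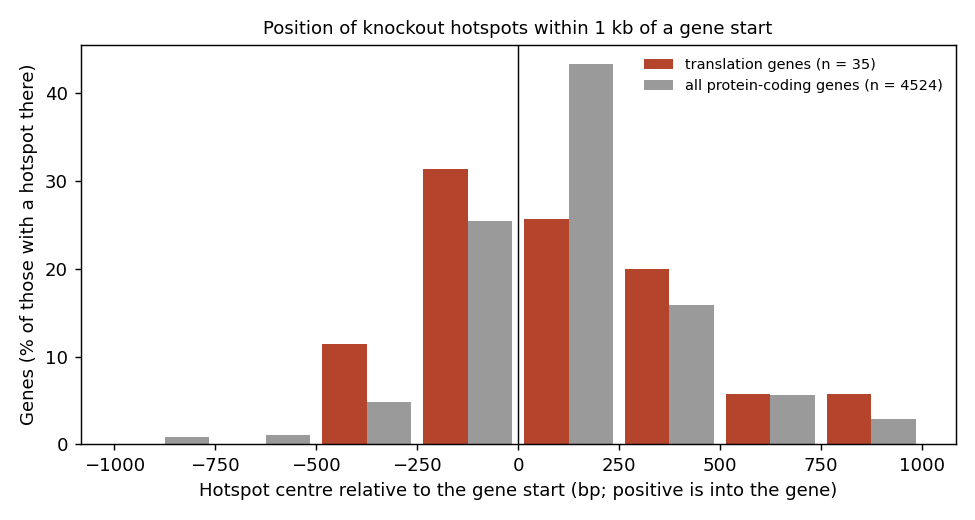
Position of the knockout hotspot centre relative to the gene start in bins of 250 bp (positive is into the gene), as percent of genes with a hotspot there, for 35 translation genes (red) and 4524 protein-coding genes (grey). In the 250 bp before the start lie 31.4% of the translation genes and 25.5% of all, and in the 250 bp after it 25.7% and 43.4%.

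Strength is the deposited number of reads minus background in a hotspot. The 48 knockout hotspots had a median strength of 92, from 41 to 1307, against 97 for the 5291 knockout hotspots at ends of protein-coding genes and 105 for the whole knockout list. They were therefore of ordinary strength for gene ends. Taking the strongest hotspot of each gene, 17 of the 47 genes (36.2%) lay above the median of the knockout list, against 44.8% of all protein-coding genes with a knockout hotspot. Above the wild type list median of 152 lay 10 of the 47 (21.3%), against 27.7% of all protein-coding genes with a knockout hotspot. Of the 47, 45 lay above a strength of 43, the 5th percentile of the wild type list. For that limit the share over all protein-coding genes was not counted. Added up, the 48 hotspots made 0.16% of all knockout strength.

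**Figure D3:**
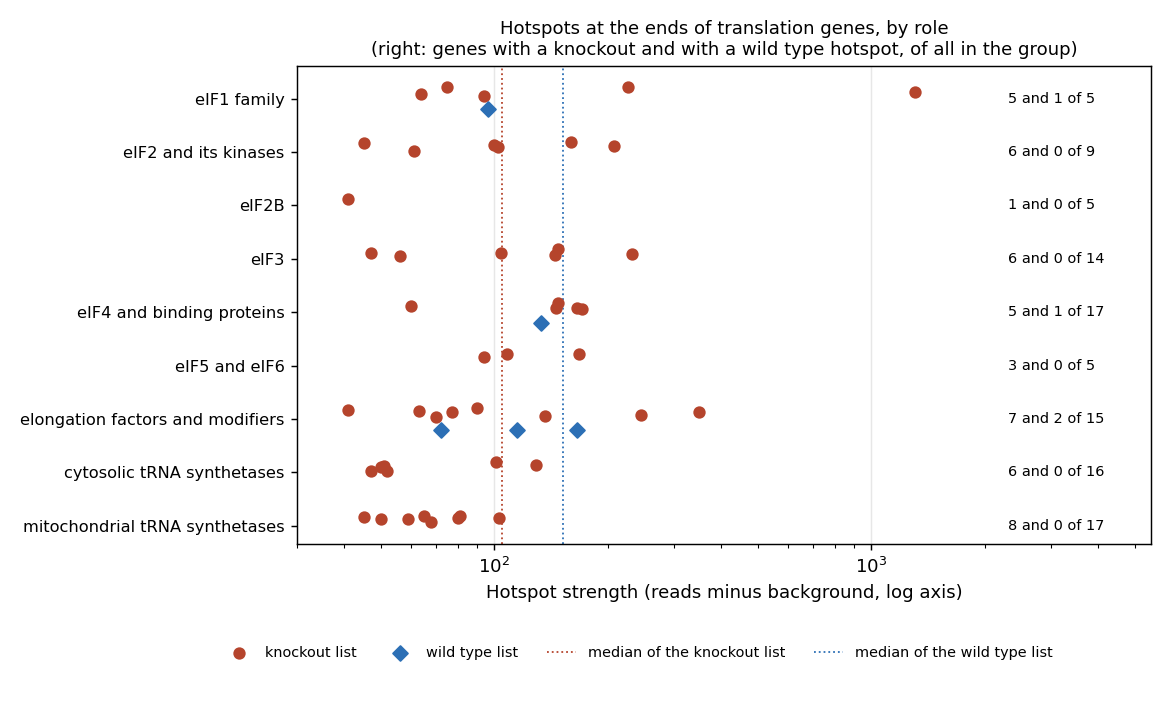
Strength of each hotspot at an end of a translation gene (reads minus background, log axis), by role, with knockout hotspots as red circles above wild type hotspots as blue diamonds. Dotted lines are the median strengths of the whole lists (105 knockout, 152 wild type), and numbers at the right give genes with a knockout and with a wild type hotspot. Eif1ax stands alone at 1307, and 13 of the 14 synthetase genes with a hotspot lie at or below 105. Of all protein-coding genes with a knockout hotspot, 44.8% lie above 105.

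eIF1 and eIF1A take part in scanning for the start codon. The eIF1 group was formed by symbol, so a shared role in scanning was not checked for each gene. All 5 genes of the group had a knockout hotspot at an end, against 27.1% of all protein-coding genes. Eif1ax, the X-linked gene for eIF1A, had the strongest hotspot of all these genes: 1307 in the knockout (1362 reads, counting interval of the strength 1240 to 1380) and 96 in the wild type (111 reads, 76.3 to 119). It ranked 127 in the knockout list and 9001 in the wild type list, and its sequence is the first printed above. The knockout hotspot lay at X 159370961 to 159373163, centred 116 bp before the start, and the wild type hotspot was centred 51 bp inside it. The other 4 were knockout-only: Eif1a, an autosomal relative on chromosome 18 (226), Eif1ad (94), Eif1 (75) and Eif1b (64). The hotspot of Eif1a also lay at an end of Tmed7, and that of Eif1ad at an end of Banf1. Whether reads could be assigned between the close relatives Eif1ax and Eif1a was not tested.

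Relative to the median of autosomal hotspots found in both lists (151 in the knockout, 182 in the wild type), Eif1ax was 16.4-fold higher in the knockout (log2 4.04, counting interval 3.67 to 4.41). As deposited the ratio was 13.6-fold. Among the 459 X genes with a knockout hotspot at an end, 6 had a stronger one than Eif1ax, and the median was 290. The X chromosome differed from the autosomes for all genes: 47.5% of X genes had a knockout hotspot at an end and 8.18% a wild type hotspot, against 26.1% and 1.7% of autosomal genes. Without the X genes, 45 of 101 translation genes (44.6%) had a knockout hotspot at an end.

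eIF2 carries the initiator tRNA, and 4 kinases that phosphorylate it slow initiation under stress. In this group, 6 of 9 genes (66.7%) carried a knockout-only hotspot at 1 end and 0 carried a wild type hotspot. Over all protein-coding genes these shares were 25.5% and 1.99%. Eif2s3x, the X-linked gene for the gamma subunit, had 208 (counting interval 180 to 239), centred 346 bp before the start. This was below the X median of 290, and 277 of the 459 X genes were stronger. Eif2s3x has a close relative on Y, and whether reads could be assigned to either copy was not tested.

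All 4 kinase genes, a part of these 9, had a knockout-only hotspot near the start. Of all protein-coding genes with a strand, 26.2% had a knockout hotspot within 1 kb of the start. Eif2ak4, which encodes the amino acid sensor GCN2, had 160, and Eif2ak3, which encodes the endoplasmic reticulum kinase PERK, had 100. Eif2ak2, the gene for the double-stranded RNA sensor PKR, had 61, and Eif2ak1, the gene for the heme-regulated kinase HRI, had 45. The genes for the alpha and beta subunits of eIF2, Eif2s1 and Eif2s2, had no hotspot of either list at an end, nor had Eif2d, while Eif2a, which encodes a separate initiator tRNA factor, had 102 in the knockout.

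eIF2B recharges eIF2 with GTP. Of its 5 genes, 1 (20%) had a hotspot at an end, against 27.1% of all protein-coding genes. This gene was Eif2b3, knockout-only with a strength of 41 (44 reads), among the lowest of all. Eif2b1, Eif2b2, Eif2b4 and Eif2b5 had the nearest knockout centre 26307 to 42086 bp away.

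eIF3 is the large scaffold that binds the small ribosomal subunit. Knockout-only hotspots lay at an end of 6 of its 14 genes (42.9%), with a median of 124.5, and wild type hotspots at 0. Over all protein-coding genes these shares were 25.5% and 1.99%. Eif3h had 231, Eif3j1 147, Eif3e 145, Eif3b 104, Eif3k 56 and Eif3d 47. The strongest of these, Eif3h, also had a hotspot inside the gene, described below. Eif3a, Eif3c, Eif3f, Eif3g, Eif3i, Eif3j2, Eif3l and Eif3m had none at an end.

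The eIF4 group recognises the mRNA cap and unwinds the leader, and it includes proteins that block the cap binder. Knockout-only hotspots lay at an end of 5 of its 17 genes (29.4%), near the 25.5% of all protein-coding genes. Eif4enif1, which encodes the eIF4E transporter 4E-T, had 171, Eif4g2, a scaffold gene that acts without eIF4E, 166, Eif4g1, the main scaffold gene, 147, Eif4a2, a helicase gene, 146, and Eif4h, whose product stimulates the helicase, 60. Thus 4 of the 5 lay above the median of the knockout list, against 44.8% of all protein-coding genes with a knockout hotspot. Eif4e, the cap binder gene itself, had no hotspot at an end by the 1 kb rule, but had a knockout-only hotspot of 199 centred 1307 bp inside it. The inhibitor genes Eif4ebp1, Eif4ebp2 and Eif4ebp3 had none.

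Eif4e2, which encodes a cap-binding repressor, went the other way. It had a wild type hotspot with a strength of 133 (150 reads, counting interval 110 to 159) at its 3′ end, centred 385 bp inside the gene. No knockout hotspot overlapped it, and the nearest knockout centre was 46120 bp from an end of the gene. Of the 103 genes, it alone had a hotspot at an end in the wild type list but not in the knockout list.

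eIF5 triggers GTP hydrolysis on eIF2, and eIF5A helps the ribosome through difficult stretches. Eif5a2 had a knockout-only hotspot of 168, Eif5 one of 108 and Eif5a one of 94, while Eif5b and Eif6 had none.

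Among the elongation factor genes and the genes for enzymes that modify these factors, 7 of 15 (46.7%) had a knockout hotspot at an end. Over all protein-coding genes it was 27.1%. Eef1a1, which encodes the main factor that delivers charged tRNAs, had 348 (366 reads, counting interval 311 to 387), knockout-only and the strongest of these genes on an autosome. Of 5397 autosomal genes with a knockout hotspot at an end, 165 (3.06%) had a stronger one. Its tissue-restricted relative Eef1a2 and Eef2, the translocation factor gene, had none. Eef1akmt1 (90) and Eef1aknmt (70), genes for eEF1A methyltransferases, Eef1e1 (77) and Eef2k, the eEF2 kinase gene (41), had knockout-only hotspots.

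Eef2kmt, which encodes a methyltransferase of eEF2, had 2 knockout hotspots at its ends, unlike the other 46 genes with 1, and both were shared with the wild type. The hotspot at its start had 245 in the knockout and 72 in the wild type, 4.1-fold higher relative to shared autosomal hotspots (log2 2.04, counting interval 1.61 to 2.46). The intervals differ, since the knockout hotspot was 3534 bp wide and the wild type one 1446 bp, with 1391 bp in common. The centre was 124 bp before the start in the knockout and 975 bp inside the gene in the wild type, so the ratio compares intervals that cover different DNA. The hotspot at its 3′ end, also at an end of Alg1, had 63 in the knockout and 115 in the wild type (log2 -0.60, -1.17 to -0.02). Eef1akmt2 had a shared hotspot near its 3′ end, with 136 in the knockout and 166 in the wild type (log2 -0.02, -0.37 to 0.33). Over all 11487 shared hotspots, 13.2% were over 2-fold higher in the knockout and 15.8% over 2-fold lower on this scale. Of the 4 shared hotspots at ends of these genes, those at the starts of Eif1ax and Eef2kmt were over 2-fold higher, and the others, at 3′ ends, moved less than 2-fold.

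Knockout-only hotspots lay at an end of 6 of the 16 cytosolic synthetase genes (37.5%), and wild type hotspots at 0. Over all protein-coding genes these shares were 25.5% and 1.99%. Yars, the tyrosyl gene, had 129 and Tars, the threonyl gene, 101. Aars had 52, Dars 51, Wars 50 and Nars 47, close to the weak end of the list. The hotspot of Yars was also at an end of S100pbp, its centre 414 bp before the gene. Cars, Gars, Hars, Iars, Kars, Lars, Qars, Rars, Sars and Vars had no hotspot of either list at an end.

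Among the 17 mitochondrial synthetase genes, 8 (47.1%) carried a knockout-only hotspot and 0 a wild type hotspot at an end, against 25.5% and 1.99% of all protein-coding genes. Fars2 had 103, Ears2 81, Yars2 80, Lars2 68, Cars2 65, Sars2 50 and Nars2 45. All 8 lay below the knockout list median of 105, while 44.8% of all protein-coding genes with a knockout hotspot lay above it. The cytosolic and mitochondrial enzymes for the same amino acid did not always pair: a hotspot was present, for example, at both Yars and Yars2 and at both Nars and Nars2. It was present at Aars but not Aars2, at Cars2 but not Cars, and at neither Hars nor Hars2. The median of the strongest hotspot per gene was 62 for the 14 synthetase genes and 104 for the 33 translation factor genes with a hotspot. The difference was not tested.

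Some hotspots served more than 1 gene. Of the 48 knockout hotspots, 14 (29.2%) also lay within 1 kb of an end of another protein-coding gene. Among the 5291 knockout hotspots at ends of protein-coding genes it was 12.8%, with each hotspot counted once. Those 5291 made 5980 pairs of a gene and a hotspot, and a hotspot at 2 genes is reached more easily from a list of genes. The 2 shares are therefore not counted alike, and no excess can be read from them. Examples are Sars2 with Mrps12, a mitochondrial ribosomal protein gene, Eif2a with Serp1, Fars2 with Lyrm4 and Ears2 with Ubfd1. A hotspot between such neighbours cannot be assigned to either gene, and no hotspot was at ends of 2 of the translation genes.

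Hotspots inside these genes, over 1 kb from both ends, were counted as well. The knockout list had 16 such hotspots in 12 genes and the wild type list 18 in 11 genes, and 11 were shared. The same count was not made for all protein-coding genes, so no excess or lack inside these genes can be read. In the whole lists, 11487 of the 22034 knockout hotspots were shared, and the wild type list held 13480 hotspots. At gene ends, 4 of 48 knockout hotspots were shared, near the 371 of 5291 at ends of all protein-coding genes. Of the 11 shared hotspots inside genes, 9 were lower in the knockout in relative strength and 5 over 2-fold lower. Their median log2 ratio was -0.56. Among all 11487 shared hotspots, inside genes or not, the median was -0.01, with 50.3% lower and 15.8% over 2-fold lower. Shared hotspots inside all protein-coding genes were not compared. The strongest of the 11, inside Fars2, had 434 in the knockout and 1171 in the wild type. Inside Eif3c the strengths were 174 in the knockout and 654 in the wild type, inside Eif3h 146 and 504, and inside Cars 44 and 363. Fars2, Eif3h and Wars each combined a knockout-only hotspot at a gene end with a shared hotspot within the gene that was over 2-fold lower in the knockout. The others of these 5, inside Cars and Eif3c, lay in genes with no knockout hotspot at an end. Another shared hotspot inside Fars2 was higher, with 108 in the knockout and 52 in the wild type. Of the 5 knockout hotspots inside genes that were not shared, those of Wars2 (89), Eif4e (199) and Eif4e3 (81) lay within 2 kb of an end.

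The upstream sequences were compared next, since promoters of housekeeping genes are often rich in CpG. The 250 bases before the promoter table start of the 77 genes held a median of 18 CpG, against 10 over all protein-coding genes. At least 10 CpG were present in 64 of the 77 genes (83.1%), against 51% of all. Among these CpG-rich genes, 32 of 64 (50%) had a knockout hotspot at the start, against 42.2% of all CpG-rich protein-coding genes. Among genes with fewer than 10 CpG it was 3 of 13 (23.1%), against 9.52%. Over all genes with a strand, the shares were 45.5% and 26.2%. Whether CpG content has a part in the difference from the background was not tested. Within the translation genes, those with a knockout hotspot at the start had a median of 18 CpG and those without had 16.

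**Figure D4:**
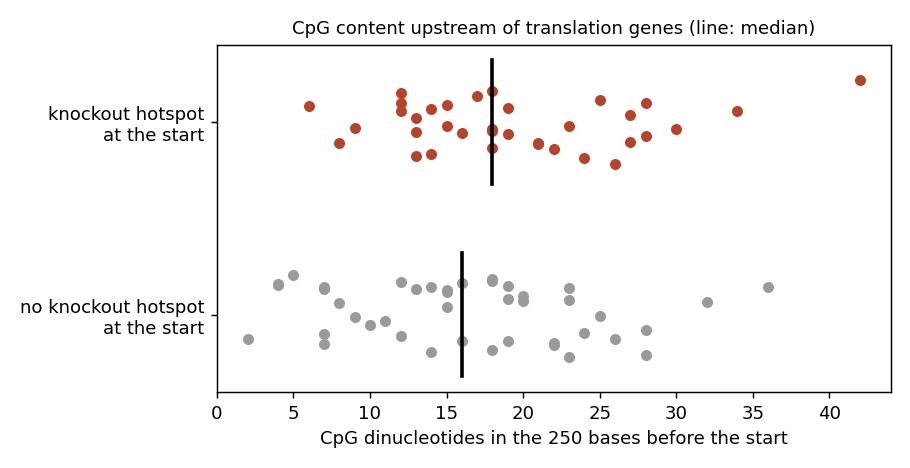
CpG dinucleotides in the 250 bases before the start of the 77 translation genes with a promoter entry, for 35 genes with a knockout hotspot at the start (red, top) and 42 without (grey, bottom), points spread vertically at random. The lines mark medians of 18 and 16, and the clouds overlap over most of their range.

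Letters of 6 motifs were counted on both strands of the same 250 bases. GGGCGG was present in 29 of 35 genes (82.9%) with a knockout hotspot at the start and in 25 of 42 (59.5%) without. It was present in 43.2% of all protein-coding promoters, 67.6% of those with a knockout hotspot and 34.5% of those without. CCAAT was present in 37.1% and 35.7% of the same groups of translation genes, against 36.8% of all. CCGGAAG was present in 20% and 19%, against 9.26% of all (12.2% of those with a knockout hotspot and 8.22% of those without). TATAAA was present in 1 of the 35 (2.86%) and 5 of the 42 (11.9%), against 12.5% of all. Over all protein-coding promoters it was 5.37% of those with a knockout hotspot and 15% of those without. The consensus palindrome of NRF1 was present at Eif3k alone, against 1.07% of all. The letters TGATGNAAT, a form of the element that ATF4 dimers bind in genes of the amino acid response, were present at Aars and Gars, neither with a knockout hotspot at the start, against 0.695% of all. GGGCGG can hold CpG pairs, so its count and the CpG count are not separate measures.

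For genes of translation outside the symbol rule (termination and recycling factors, mitochondrial factors, tRNA synthetase partners and regulators), 13 of 33 (39.4%) had a knockout hotspot at an end, all 13 knockout-only, against 27.1% of all protein-coding genes with a knockout and 25.5% with a knockout-only hotspot. A wild type hotspot was at an end of 0 of the 33, against 1.99% of all. Mtrf1l, a mitochondrial release factor gene, had 357, Pabpc1, a poly(A)-binding protein gene, 292, and Gspt2 on X, a release factor gene, 286. Mcts1 on X, a reinitiation factor gene, had 182 and Aimp2, a scaffold gene of the multi-synthetase complex, 180. Their median strength was 104, against 94 for the strongest hotspot of the 47 genes.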

How the data were processed

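DMC1-SSDS was measured in 2 knockout and 2 wild type samples, and 8 H3K4me3 and input samples were not used here. Per the file headers, the authors deposited 1 hotspot list per genotype with read counts, a background signal, strength (a signal equal to reads minus background), the percent of summed strength and a rank. Build mm10 and the tools BWA, Bowtie2, CASAVA and MACS2 appear in the submitters' processing notes, without roles or versions. How samples were combined into 1 list is not stated. The lists held 4203380 knockout and 4376692 wild type reads in hotspots, and the weakest hotspots had 23 and 28 reads. A gene with no listed hotspot may have had breaks below that level.

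Gene ends came from RefSeq (GRCm38.p6, the coordinates of mm10), and the strand from its promoter table, which held 77 of 103 genes. Hotspot counts and offsets at starts use the outer gene end on that strand, while sequences, CpG and motifs use the start of the promoter table nearest to that end. Hotspots were shared when they overlapped by at least 1 bp. Intervals are 95% Poisson or, for ratios, normal intervals on reads and cover counting error only. Python 3.11.15, pandas 2.3.3 and scipy 1.17.1 were used. The genes, their role groups, the other translation genes and the rule for named genes (wild type hotspots, X genes, the strongest overall and per group, and groups of under 10 genes in full) were chosen with earlier results of these data known. The split at 10 CpG was chosen later. The counting was tested on simulated hotspots. Alternatives changed the window, overlap, list depth, gene end and scaling. The values of 1 synthetase gene are not reported here singly.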

Additional observations from a re-analysis of the deposited data

How the results depend on the processing

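The number of translation genes with a knockout hotspot at an end was 47 and stayed between 40 and 52 in the following settings. It was 40 (38.8%, against 23.6% of all protein-coding genes) with a window of 500 bp and 52 (50.5%, against 30.5%) with 2 kb. It was 44 (42.7%, against 26.8%) with hotspots that cover the end and 45 (44.6%, against 26.1%) without X. With windows of 500 bp and 2 kb, the knockout-only count of 44 was 38 (36.9%, against 22.8%) and 48 (46.6%, against 27.9%). The wild type count of 4 was 3 (2.91%, against 0.929%) and 5 (4.85%, against 3.99%). The knockout count was 25 (24.3%, against 16% of all protein-coding genes) when only the 13480 strongest knockout hotspots were kept, the length of the wild type list. It was 17 (16.5%, against 12.1%) with hotspots above the median strength of the list, so most of the 47 genes had only hotspots at or below it. This cut kept 36.2% of the 47 genes, against 44.8% of all protein-coding genes with a knockout hotspot. At the 3′ end alone the knockout count was 4 of the 77 genes with a strand (5.19%, against 2.19%). With the start of the promoter table, an alternative chosen after seeing the data, it was 38 of 77 (49.4%, against 27.8%). The wild type count became 1 (0.971%, near the 0.934% of all protein-coding genes) with hotspots above the list median. At gene starts alone it was 2 of 77 (2.6%, against 0.747%). The median strength of 92 was 105 as reads without background subtraction and 0.00233% as a share of summed strength, which is another unit. The 4 ratios of shared hotspots kept their direction under both other scalings and stayed within their counting intervals. No paired analysis was possible because each list holds 1 value per hotspot for its genotype, with no replicate columns, and for the same reason no replicate could be left out.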
